A study of Mus musculus with 2 samples.

Results

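The alpha-globin locus of mouse chromosome 11 was described in DNase-seq peaks, which mark DNA that the nuclease DNase I can reach in nuclei. Its members were the peaks whose summit lies in a 120 kb window of the mm9 assembly that holds Hba-x, Hba-a1 and Hba-a2 and the enhancers in and near Nprl3. There were 124 such peaks of 400000 in all, 55 of 200000 in G1E-ER4 cells and 69 of 200000 in G1E cells. G1E-ER4 cells are erythroid cells in which Gata1 has been restored, here after 24 h of differentiation with 10 nM beta-estradiol. G1E cells are erythroid progenitors without Gata1 that had no treatment. Both lines are labelled as male, of strain 129 and of embryonic stem cell origin, so each is a cultured line and not a tissue, while the reference assembly is of another strain. Each state was 1 sample with 2 peak lists, called list 1 and list 2, and every list held 100000 peaks. Cell line, restored Gata1, estradiol and sample change together between the states, so their effects cannot be told apart. Whether the lists of a state come from separate cultures is not in the labels, and their spread can be technical. With 1 sample per state, 2 lists against 2 cannot give a permutation p below 0.333. No test between states was therefore run, and a difference is set beside the gap between the lists of a state.

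Red cells carry oxygen on hemoglobin, a tetramer of alpha-type and beta-type globin chains. In the mouse the alpha-type chains come from Hba-x, the zeta-globin gene of embryonic red cells, and from Hba-a1 and Hba-a2, which are near copies of each other and serve fetal and adult red cells. Their transcription depends on a group of enhancers upstream, most of them inside introns of the neighbouring gene Nprl3, which are bound by Gata1 with Tal1 and partner proteins in erythroid cells. The enhancers are named after their distance in kb upstream of the Hba-x start: HS-31, HS-26, HS-21, HS-12 and HS-8.

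The 5 enhancers and the shared alpha-globin promoter are shown because the values turn on them, each as 201 bases around the middle of its summits (the promoter as 250 bases), on the plus strand of mm9. Capitals mark the GATA words AGATAA and its variant AGATAG, or TGATAA and its variant TGATAG, on either strand, the letters that Gata1 is known to bind. The promoter sequence is a RefSeq promoter entry (table build GRCm38.p6) found by exact match in mm9. It lies directly before the annotated Hba-a2 gene and occurs a second time, letter for letter, at Hba-a1 (chr11:32183422-32183671).
HS-31 (Nprl3 intron, chr11:32145731-32145931): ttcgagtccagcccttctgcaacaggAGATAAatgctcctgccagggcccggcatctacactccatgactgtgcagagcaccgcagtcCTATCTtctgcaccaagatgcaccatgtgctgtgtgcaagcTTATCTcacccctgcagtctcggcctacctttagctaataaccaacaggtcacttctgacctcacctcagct
HS-26 (inside Nprl3, chr11:32150973-32151173): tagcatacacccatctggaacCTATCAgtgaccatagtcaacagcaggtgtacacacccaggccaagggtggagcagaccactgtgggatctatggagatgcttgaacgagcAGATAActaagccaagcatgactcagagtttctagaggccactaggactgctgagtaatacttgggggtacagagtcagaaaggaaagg
HS-21 (inside Nprl3, chr11:32156215-32156415): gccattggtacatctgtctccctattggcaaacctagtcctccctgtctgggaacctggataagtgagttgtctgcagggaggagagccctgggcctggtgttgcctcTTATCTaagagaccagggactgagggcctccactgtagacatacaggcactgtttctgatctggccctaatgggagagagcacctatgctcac
HS-12 (Nprl3 intron, chr11:32165211-32165411): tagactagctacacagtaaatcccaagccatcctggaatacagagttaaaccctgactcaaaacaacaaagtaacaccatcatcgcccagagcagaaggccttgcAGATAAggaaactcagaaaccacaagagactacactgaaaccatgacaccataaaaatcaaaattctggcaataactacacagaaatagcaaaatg
HS-8 (between Nprl3 and Hba-x, chr11:32169065-32169265): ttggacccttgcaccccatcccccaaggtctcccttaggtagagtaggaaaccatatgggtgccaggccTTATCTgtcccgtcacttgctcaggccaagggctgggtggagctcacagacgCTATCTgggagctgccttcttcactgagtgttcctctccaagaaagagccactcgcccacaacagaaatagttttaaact
Hba-a2 and Hba-a1 promoter (chr11:32196239-32196488): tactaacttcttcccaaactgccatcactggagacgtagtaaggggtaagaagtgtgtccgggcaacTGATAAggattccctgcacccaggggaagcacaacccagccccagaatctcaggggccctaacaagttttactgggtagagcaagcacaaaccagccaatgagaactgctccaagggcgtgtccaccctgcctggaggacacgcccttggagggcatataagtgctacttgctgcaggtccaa

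A GATA word stood within 100 bp of the middle of every one of the 5 enhancers. HS-31 had 3, HS-26 and HS-8 had 2 each, and HS-21 and HS-12 had 1 each. HS-8, unlike the other 4, had a summit of its own in 1 list only. For comparison, 27.8% of the 22137 places in the genome where all 4 lists had a summit held at least 1 such word in a window of the same length, and 7.44% held 2 or more. The nearest word lay 4 and 27 bp from the G1E-ER4 summits of HS-31, and 8 and 6 bp from the G1E summits. At HS-21 it lay 4 and 10 bp from the G1E-ER4 summits, and 15 and 25 bp from the G1E summits. The words thus lay close to the summits in both states. At HS-12 the nearest lay 3 and 27 bp from the G1E-ER4 summits, and 40 and 42 bp from the G1E summits. At HS-26 these distances were 16 and 41 bp in G1E-ER4 cells and 22 and 14 bp in G1E cells. The summits of either state fell within 42 bp of a GATA word at these 4 enhancers, with no order of the states that held at all 4.

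Other motifs were found at fewer of the enhancers. CTG followed after 7 to 9 bases by AGATAA is the composite element of Tal1 and Gata1. It was found 2 times at HS-31, 1 time at HS-21 and 1 time at the Il9r promoter, against 2.77% of the all-list places. TGAGTCA, the element of NF-E2 and of AP-1 factors, stood 1 time each at HS-26, at HS-12 and at the Rhbdf1 promoter, against 4.9%. CCACCC, the box of Klf1 and related factors, stood 1 time each at HS-26, at HS-8 and at the Hba-a1 and Hba-a2 promoters, against 25.2%. It also stood 1 time each at the Il9r and Mpg promoters and at a place inside Hba-x at 1.5 kb. The core motif of CTCF was found at none of the 5 enhancers, but at the promoters of Hbq1b, Hbq1a and Rhbdf1 and at the place at -59.3 kb in Rhbdf1, against 13.5%. All motifs were searched on both strands, the GATA words overlap the composite, and a match is a description of letters only. In the 250 bases before and around the start, Hba-x had 2 GATA words and 1 CCACCC box, and Hba-a1 and Hba-a2 had 1 of each, where 26.5 and 28.1% of 32851 RefSeq promoters hold them.

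The window was rich in peaks in both states. It held 25 and 30 peaks in G1E-ER4 lists 1 and 2, and 28 and 41 in G1E lists 1 and 2, where consecutive stretches of the same length over the genome held 4.5 on average. As many peaks were found in 4.28 and 1.63% of the 22135 stretches in G1E-ER4 cells, and in 3.06 and 0.25% in G1E cells. Peaks covered 29.4 and 40.2% of the window in G1E-ER4 cells and 28.8 and 43.9% in G1E cells. List 2 of each state covered more of it than list 1, while the states overlapped.

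Each peak carries the authors' density value, and the sources used here name no scaling across lists. The value was turned into a percentile within its list, where 100 is the strongest of the 100000 peaks. The median percentile of the window's peaks was 80.0 and 77.9 in G1E-ER4 cells and 80.0 and 54.7 in G1E cells. Above the 75th percentile (the top 25%) stood 13 and 15 peaks in G1E-ER4 cells and 16 and 17 in G1E cells. The top 10% held 8 and 6 of the window's peaks in G1E-ER4 cells, and 4 and 7 in G1E cells. The lower median of G1E list 2 goes with its larger number of weak peaks: 19 places had a summit in that list alone, against 6 and 10 in G1E-ER4 lists 1 and 2 and 4 in G1E list 1.

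**Figure D1:**
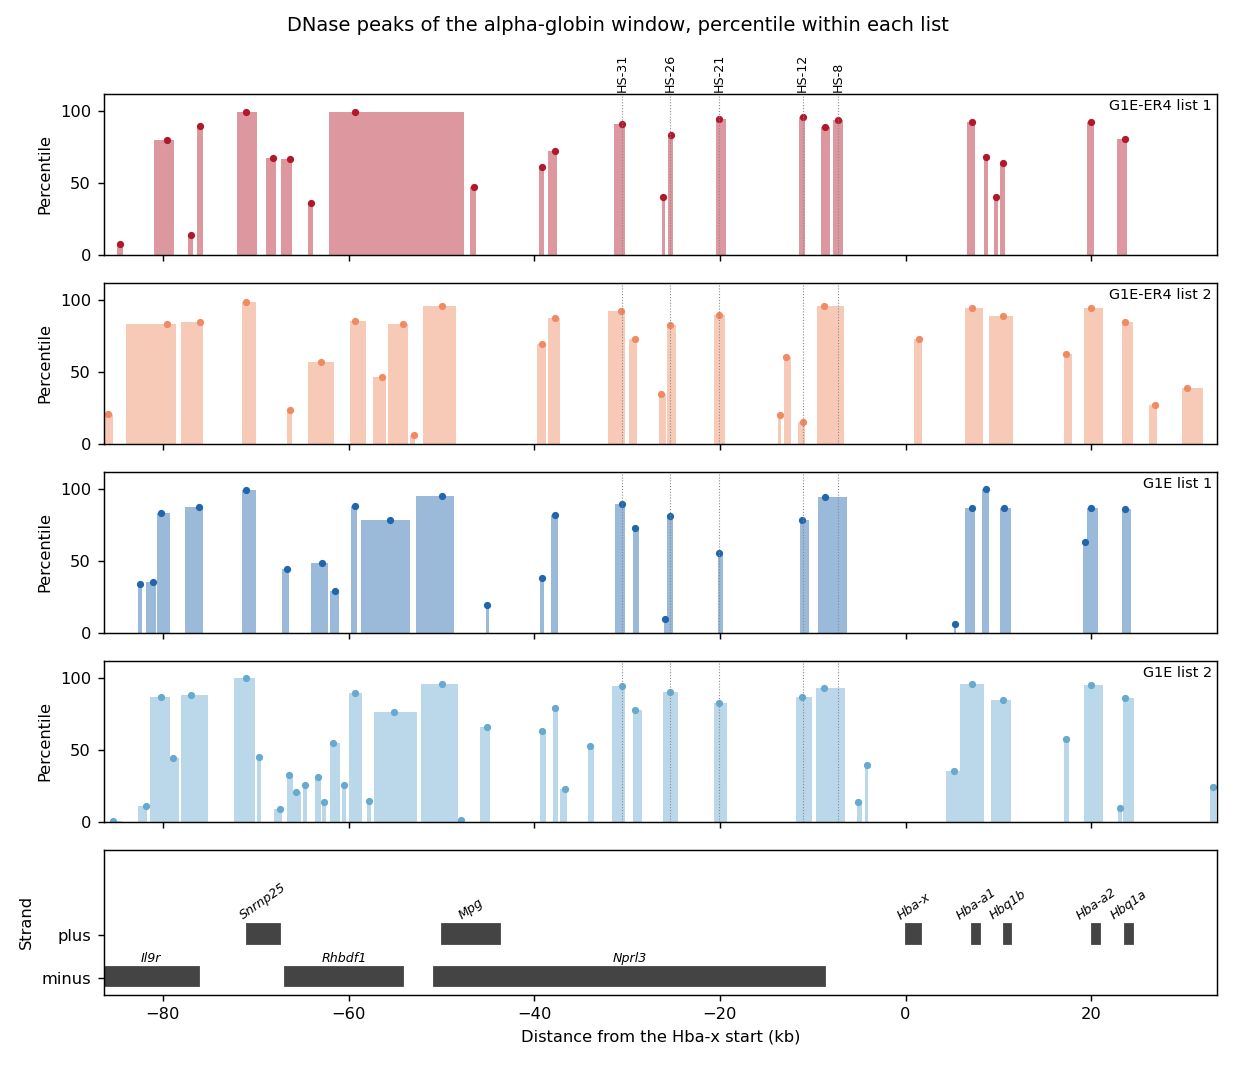
Peaks of the alpha-globin window in the 4 lists, by distance from the Hba-x start in kb (x axis) and percentile within the list (y axis, 0 to 100). Each bar spans 1 peak and its dot marks the summit, dotted lines mark the 5 enhancers, and the bottom panel shows the genes by strand. Most enhancers and the Hba-a1 and Hba-a2 promoters have a tall bar in each list, and no list has a peak at the Hba-x start.

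No place in the window had a peak in G1E-ER4 cells alone by a rule that asked for both lists. Summits of any list that lay within 250 bp of the next were chained into a place, which gave 66 places in the window and 255911 in the genome. Places with a summit in both G1E-ER4 lists and no overlapping G1E peak numbered 0 of 66, where 1.32% of all places were of that kind. The opposite kind, seen in G1E lists 1 and 2 with no peak in G1E-ER4 cells, numbered 2 of 66, where the genome had 2.84%. These counts are near the genome's shares. Both G1E-only places were weak: 1, at -45.1 kb in the last part of Nprl3, stood at percentiles 19.4 and 65.9, and the other, at 5.3 kb between Hba-x and Hba-a1, at 6.0 and 35.3. With 1 list left out, its partner standing for the state, the G1E-ER4-only count was 7 of 60 without G1E-ER4 list 1 and 2 of 56 without G1E-ER4 list 2, where the genome's shares were 20.6 and 22.4%. The G1E-only count was 10 of 62 without G1E list 1, where the genome's share was 17.5%. Without G1E list 2 it was 2 of 47, where the genome's share was 15.4%.

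Places shared by all 4 lists were common in the window, 14 of 66 (21.2%), where 8.65% of the genome's places were shared. Their median percentile was 90.1 and 88.4 in G1E-ER4 cells and 86.2 and 88.0 in G1E cells, beside 84.9 and 85.6, and 84.2 and 85.4, over all shared places. Only 1 of the 14 ranked higher in both G1E-ER4 lists than in both G1E lists, and 1 ranked lower in both, where 16.9% of shared places ranked higher and 16.3% lower. The median difference of the 14, G1E-ER4 minus G1E, was -0.4 percentile points, beside -0.5 over the genome. It ranged from -27.2 points at HS-12 to 23.1 points at HS-21.

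HS-31, HS-26 and the strong promoters stood at like percentiles in both states. HS-31, in an Nprl3 intron at -30.6 kb, had percentiles of 91.4 and 92.3 in G1E-ER4 cells and 89.9 and 94.3 in G1E cells, and a difference of -0.3 points. Its G1E-ER4 values lay between the G1E values. HS-26, at -25.3 kb and the best studied of the group as an alpha-globin enhancer, had 83.1 and 82.8 in G1E-ER4 cells and 81.3 and 90.2 in G1E cells. The difference was -2.9 points, smaller than the gap of 8.9 points between the G1E lists, and it was -7.3 points without G1E list 1 and 1.6 points without G1E list 2. Of the enhancers with a summit in each list, HS-26 had the narrowest gap in G1E-ER4 cells, 0.3 points, and its peaks were 513 and 1026 bp wide in G1E-ER4 cells and 588 and 1603 bp wide in G1E cells.

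HS-21 was the 1 place of the window that ranked higher in both G1E-ER4 lists. Its percentiles were 94.7 and 89.7 in G1E-ER4 cells and 55.8 and 82.4 in G1E cells. The groups did not overlap, the difference was 23.1 points, and 3.65% of the 22137 shared places had one as high. In ranks, where 1 is the strongest peak of a list, HS-21 stood at 5305 and 10296 in G1E-ER4 cells and at 44218 and 17561 in G1E cells. The G1E lists lay 26.7 points apart, more than the difference itself, and the G1E-ER4 lists 5.0 points apart. The place lies at -20.1 kb in the first exon (chr11:32156093-32156413) of a short Nprl3 transcript, 98 bp from its start. The peak of G1E list 1 was also the narrowest, at 599 bp, beside 1109 and 1165 bp in G1E-ER4 cells and 1393 bp in G1E list 2. Without G1E list 1 the difference was 9.8 points, and without G1E list 2 it was 36.4 points.

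HS-12 had the lowest difference of the window and the lists of G1E-ER4 cells decided it. Its percentiles were 95.8 and 15.0 in G1E-ER4 cells and 78.6 and 86.6 in G1E cells. The G1E-ER4 lists lay on either side of the G1E lists, 80.8 points apart, a gap that only 0.235% of shared places matched or passed. The difference was -27.2 points with both lists, -67.6 points without G1E-ER4 list 1 and 13.2 points without G1E-ER4 list 2. No direction can be given for this enhancer, which lies in an Nprl3 intron at -11.1 kb. Its widths were 669 and 676 bp in G1E-ER4 cells and 1051 and 1784 bp in G1E cells.

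HS-8 was resolved as a summit of its own in 1 list. G1E-ER4 list 1 had a peak there of 1096 bp at the percentile 93.8, at -7.2 kb. In G1E-ER4 list 2 and in both G1E lists the place lay inside the wide peak of the Nprl3 promoter, which spanned 2939 bp in G1E-ER4 list 2 and 3047 and 3120 bp in the G1E lists, against 915 bp in G1E-ER4 list 1. The Nprl3 promoter itself, at -8.7 kb, had percentiles of 88.8 and 96.1 in G1E-ER4 cells and 93.0 to 94.2 in G1E cells. Nprl3 encodes a subunit of the GATOR1 complex, which restrains mTORC1 signalling. The place lay inside a peak in all 4 lists, and the lists differed in how far the promoter peak reached.

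Hba-x had no peak at its outermost start in any of the lists. The annotated gene runs from 32176400 to 32178116 on the plus strand. The only peak within it was found in G1E-ER4 list 2, at the percentile 73.1 and 795 bp wide, with its summit at 1.5 kb, in the last intron and 12 bp before the last exon. G1E-ER4 list 1 and both G1E lists had none. This embryonic gene was thus the 1 alpha-type gene with no DNase peak at its outermost start in either state. Of its 20-base words 7.3% have another copy in the genome.

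Hba-a1 and Hba-a2 had a strong promoter peak in all 4 lists. At Hba-a1 (32183511 to 32184465) the percentiles were 92.8 and 94.3 in G1E-ER4 cells and 86.8 and 95.9 in G1E cells. At Hba-a2 (32196489 to 32197301) they were 92.4 and 94.5 in G1E-ER4 cells and 86.6 and 95.0 in G1E cells. At both genes the G1E-ER4 values lay between the G1E values, and the differences, 2.2 and 2.6 points, were smaller than the gaps of 9.1 and 8.4 points between the G1E lists. Their peaks were 878 and 1932 bp wide at Hba-a1 in G1E-ER4 cells and 1050 and 2532 bp in G1E cells. The adult promoters ranked in the top 15% of peaks in each G1E list, so they were among the stronger sites in the cells without Gata1 too.

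The Hba-a1 and Hba-a2 values cannot be read as independent measurements. A stretch of 1022 bp is identical between the copies (32183321 to 32184342, and 32196138 to 32197159), 12817 bp apart, and the genes are identical at 793 of 794 aligned bases. The tags were 20 bases long, and a tag that matched more than 1 place stayed in the data at its best match. Of the 20-base words of the genes, 98.6% at Hba-a1 and 97.5% at Hba-a2 have another exact copy in mm9, and within 100 bp of the promoter summits 100% do. The deposited density at Hba-a2 was 0.97 and 1.03 times that at Hba-a1 in G1E-ER4 cells and 0.99 and 0.91 times in G1E cells. The summits lay within 15 bp of the matching base of the other copy in each list. A value at either promoter is thus a value of the pair, and a change at 1 copy alone was not detectable.

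Around their summits the enhancers held few repeated words. Within 100 bp 2.75% of the words at HS-31, 1.65% at HS-26 and at HS-21, 6.59% at HS-12 and 0.549% at HS-8 had another copy, beside 17.1% over the window. Over whole peaks the share was highest at HS-12, where 25.5 and 21.3% of the words in the G1E-ER4 peaks and 15.9 and 14.3% in the G1E peaks had another copy, 1 of them with 492516 copies. The part of repeats in the unequal HS-12 percentiles was not tested. Over the whole peaks of the other 4 enhancers the share was at most 11%. The theta-globin genes Hbq1b and Hbq1a, a second pair of near copies (94.3% identical), had 54.4 and 61.5% within 100 bp of their promoter summits.

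**Figure D2:**
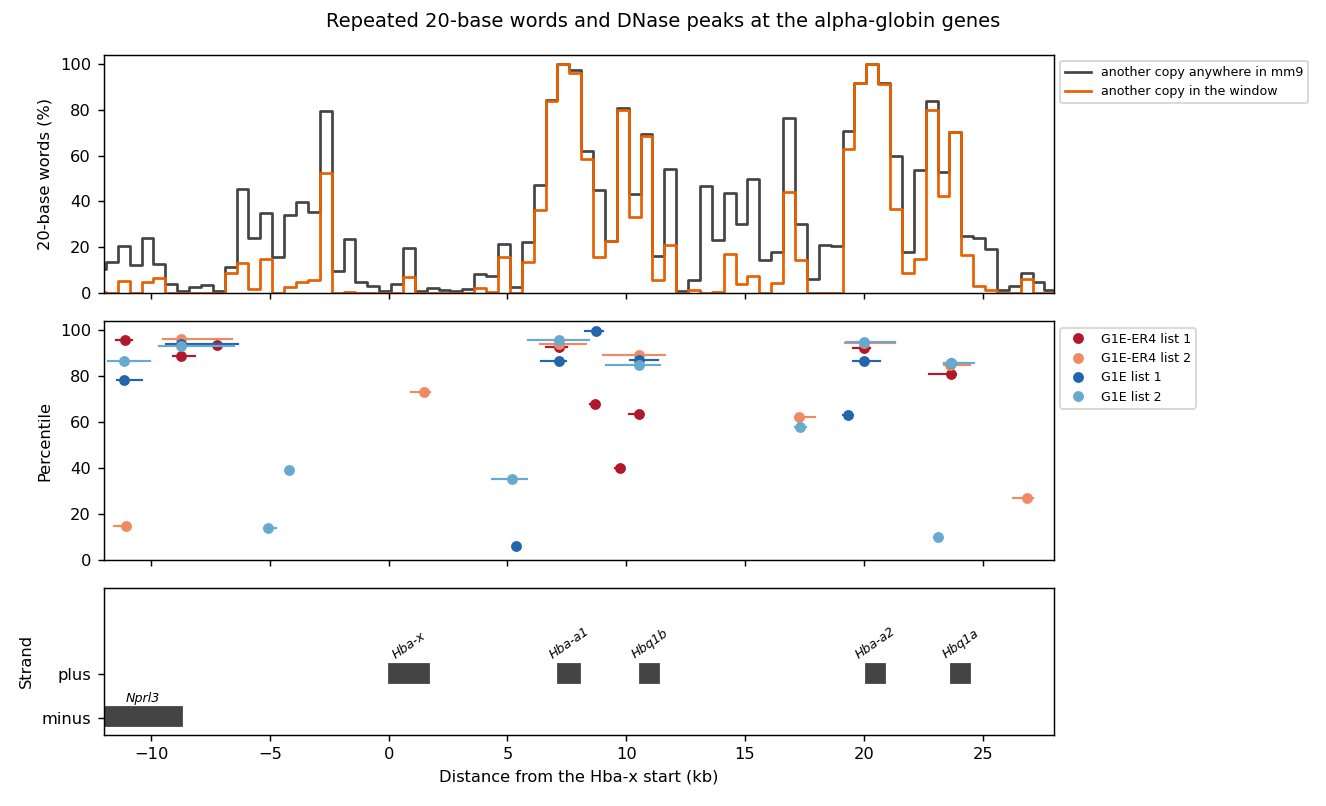
Share of 20-base words with another exact copy in mm9 or in the window, in 500 bp bins (top, %), percentile of the peaks in each list (middle, circles at summits with bars over the peaks) and genes by strand (bottom), by distance from the Hba-x start in kb. The share reaches 100% at Hba-a1 and Hba-a2, where the 4 lists have their promoter peaks, and is low over Hba-x, where only G1E-ER4 list 2 has a peak.

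A single peak stood apart next to Hba-a1. At 8.7 kb, between Hba-a1 and Hbq1b, G1E list 1 had a peak of 762 bp at the percentile 99.8 (rank 185), the strongest of that list in the window. G1E-ER4 list 1 had a peak there at 68.1 (rank 31877), and G1E-ER4 list 2 and G1E list 2 had none. Of its 20-base words, 71.1% in the G1E-ER4 list 1 peak and 52.4% in the G1E list 1 peak had another copy in mm9, with up to 492516 copies of 1 word, and its relation to tags from repeats was not tested. A value for Hba-a1 that joined neighbouring peaks would take the 99.8 of this peak in place of the 86.8 of the promoter.

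The other genes of the window had promoter peaks in both states or lay inside wider peaks. Snrnp25, which encodes a protein of the minor spliceosome, had the highest mean percentile of the shared places, with 99.7 and 98.8 in G1E-ER4 cells and 99.6 and 99.9 in G1E cells. Hbq1b had 63.7 and 89.1 in G1E-ER4 cells and 87.0 and 84.8 in G1E cells, a difference of -9.5 points that was 3.2 points without G1E-ER4 list 1 and -22.2 points without G1E-ER4 list 2. The G1E-ER4 lists lay on either side of the G1E lists there. Hbq1a, with 80.9 and 85.0 in G1E-ER4 cells and 85.9 in each G1E list, was the 1 place that ranked lower in both G1E-ER4 lists, by a difference of -2.9 points. That difference is smaller than the gap of 4.1 points between the G1E-ER4 lists. Mpg, a DNA repair glycosylase, had 95.7 in G1E-ER4 list 2 and 95.4 and 95.6 in the G1E lists, while G1E-ER4 list 1 covered it with a single peak of 14585 bp that reached across Rhbdf1. Il9r, the receptor of interleukin 9, had 89.5 and 85.0 in G1E-ER4 cells and 87.3 in G1E list 1 at a place that a peak of G1E list 2 covered. The Rhbdf1 promoter had a summit of its own in G1E-ER4 list 2 alone, at 83.1, and lay inside a peak in the other lists.

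The remaining shared places lie inside Rhbdf1 and Nprl3 and are weaker or more variable. At -59.3 kb in Rhbdf1, an inactive rhomboid protein, the percentiles were 99.5 and 85.7 in G1E-ER4 cells and 88.2 and 89.4 in G1E cells, and the 99.5 belongs to the peak of 14585 bp. At -66.4 kb, also in Rhbdf1, they were 66.7 and 23.6 in G1E-ER4 cells and 44.6 and 32.7 in G1E cells. Neither place separated the states. In Nprl3, between HS-31 and Mpg, the place at -39.2 kb had 61.3 and 69.5 in G1E-ER4 cells and 38.2 and 63.3 in G1E cells, with a difference of 14.6 points and G1E lists 25.1 points apart. Its neighbour at -37.8 kb had 72.0 and 87.7 in G1E-ER4 cells and 82.0 and 79.5 in G1E cells. The states overlapped at both. Close to HS-31, a place at -29.1 kb had a summit in 3 lists, at 72.8 in G1E-ER4 list 2 and at 72.9 and 77.6 in the G1E lists. Of the 66 places, 39 had a summit in 1 list, 10 in 2 lists, 3 in 3 lists and 14 in 4. Over the genome these numbers were 174607, 40728, 18439 and 22137 of 255911 places, so most places there also had a summit in 1 list only.

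**Figure D3:**
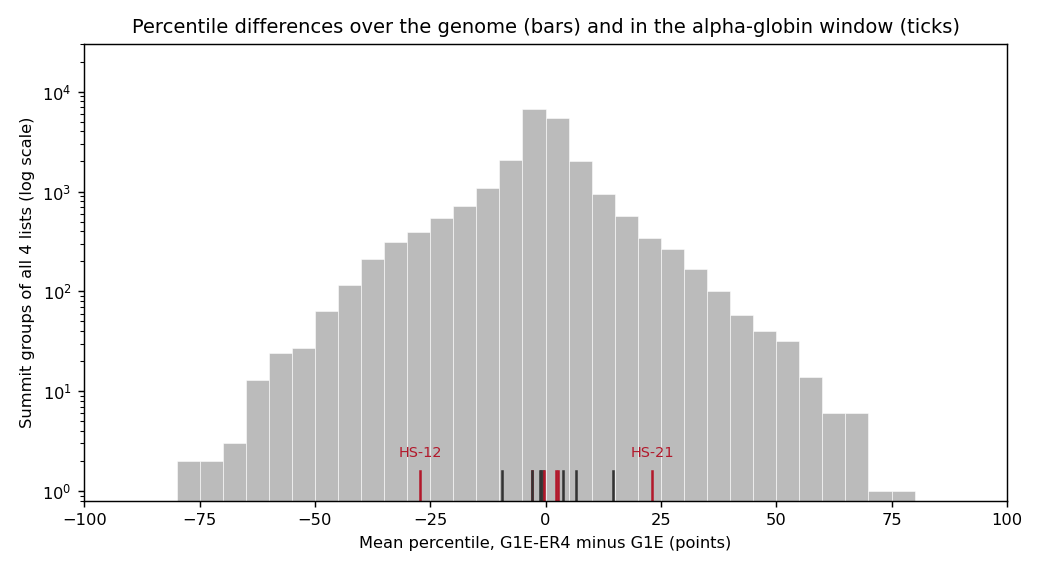
Difference in mean percentile, G1E-ER4 minus G1E (x axis, points), for the 22137 places with a summit in all 4 lists (bars, number of places on a log scale). Ticks at the bottom are the 14 shared places of the alpha-globin window, red for the enhancers and the Hba-a1 and Hba-a2 promoters. HS-21 at 23.1 and HS-12 at -27.2 points are the ends of the window's range, and the other ticks lie between -9.5 and 14.6 points.

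Within 50 and 100 bp of the summit, GATA words were more frequent in the window's peaks than in the whole list in 3 of the 4 lists. Within 100 bp of the summit, 12 of 25 (48.0%) and 12 of 30 (40.0%) of the window's peaks in G1E-ER4 cells held one, against 10 of 28 (35.7%) and 12 of 41 (29.3%) in G1E cells. Over all peaks of the lists the shares were 32.7 and 27.3% in G1E-ER4 cells and 26.4 and 30.1% in G1E cells. Within 50 bp the window's shares were 24.0 and 20.0% in G1E-ER4 cells and 21.4 and 17.1% in G1E cells, where the lists as a whole had 19.3 and 15.3% in G1E-ER4 cells and 14.7 and 17.3% in G1E cells. In G1E list 2 the window's share was just under that of the list at both of these distances. Within 150 bp the window's shares were 48.0 and 40.0% in G1E-ER4 cells, where the whole lists had 42.6 and 37%. In G1E cells they were 35.7 and 31.7%, where the whole lists had 35.9 and 40%. At that distance both G1E lists thus had a lower share in the window.

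The beta-globin locus, the partner gene cluster on chromosome 7, held fewer peaks. A window of the same length there held 7 and 10 peaks in G1E-ER4 cells and 8 and 15 in G1E cells, which covered 3.0 and 5.6% of it in G1E-ER4 cells and 2.6 and 9.1% in G1E cells. In each list this was fewer peaks and less covered length than in the alpha-globin window. Many peaks of the alpha-globin window lie in or near Il9r, Snrnp25, Rhbdf1, Mpg and Nprl3. The counts thus compare whole windows and not the globin genes alone. Hbb-b1, an adult beta-globin gene, had a promoter summit at 92.9 and 90.9 in G1E-ER4 cells and at 61.7 in G1E list 2, and none in G1E list 1. Hbb-b2, the other adult gene, had 77.2 in G1E-ER4 list 2 and 29.5 in G1E list 2 and none in the remaining lists. The embryonic genes Hbb-bh1 and Hbb-y had none in any list, as at the start of Hba-x.

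The genes that work with alpha-globin mostly had promoter peaks in both states. Of 26 genes listed, 24 were annotated, and 15 of them had a summit within 1000 bp of a start in all 4 lists, where 47.2% of 22380 protein-coding genes did. None had it in both lists of a state and in neither list of the other, a pattern of only 220 (G1E-ER4) and 249 (G1E) of the 22380 genes. Among the 8 heme enzymes 6 had it in all 4 lists, Ppox with 97.7 and 93.6 in G1E-ER4 cells and 96.0 and 98.1 in G1E cells. Alas2, the erythroid first enzyme of heme synthesis, had it in G1E-ER4 list 2 alone, at 75.6. Among 10 factors known at these enhancers 7 had it in all 4 lists. Tal1, the partner of Gata1 on the composite element, stood at 95.3 and 96.9 in G1E-ER4 cells and 93.8 and 93.3 in G1E cells. Both G1E-ER4 values were the higher at Tal1 and at Lmo2, and the states overlapped at the rest of the 7. Over the genome 16.9% of the places shared by all 4 lists had that order. The Gata1 gene itself stood at 44.8 and 89.1 in G1E-ER4 cells and 81.5 and 87.8 in G1E cells, which checks nothing about the protein. Of 10 erythroid markers 7 had a promoter summit in all 4 lists. Among these 7 are Hba-a1 and Hba-a2, the pair of the locus itself, and Gata1, already counted among the factors. Of 8 markers of lymphoid, myeloid, liver and neural cells 2 had one in all 4 lists. The myeloid gene Csf1r stood at 46.1 and 3.5 in G1E-ER4 cells and 37.4 and 26.3 in G1E cells. The neural gene Nes stood at 99.0 and 77.6 in G1E-ER4 cells and 83.4 and 87.1 in G1E cells.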

How the data were processed

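DNase-seq peaks were taken from 4 deposited lists, 2 per cell state, put in groups by the labelled cell. Per the series design text, DNase I ends captured at several enzyme concentrations were sequenced as tags of 20 bases and aligned to mm9 with Bowtie (best match, tags with several matches kept). Lanes were pooled per replicate, SAMtools was used for conversion, F-seq made a density, and peaks came from a gamma fit. Versions of these tools, tag numbers and the peak threshold were not given in the sources used here. Depth is therefore unknown. The signal of a peak is the density value that the authors deposited, and the deposited summit offset (another kind of value) gave the summit. Equal list lengths mean that a percentile is relative to each list.

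Peaks were kept unmerged. A percentile is the share of the list's peaks with a signal at or below that of the peak. Summits within 250 bp of the next were chained into places, and a place takes the highest peak per list. Genes came from the GENCODE vM1 annotation on the same assembly, with promoters within 1000 bp of a start. The text names all genes of the window, starts of the alpha-type genes, the place of highest mean percentile within 2.0 kb of each enhancer's nominal distance, and every one-state place. The mean was taken over the lists with a summit, so the choice of HS-8 rests on the 93.8 of 1 list. The Nprl3 promoter place at -8.7 kb, with a summit in all 4 lists, was in the same range. That choice of places used levels, so the levels are a description. Members and gene lists were chosen with earlier results of these data known. Motifs other than GATA, and the peak next to Hba-a1, were added after seeing the data. Only the chaining into places and the sorting of places by list and rank were tested on simulated data. The simulated sites lay far apart and had narrow peaks, so crowded places and very wide peaks were not tested. Alternatives were other chaining distances, the top 50% of peaks, other percentiles, other windows around summits and starts, and leaving out each list. Python 3.11.15, pandas 2.3.3, numpy 2.4.6, Biopython 1.88, samtools 1.23.1 and matplotlib 3.10.9 were used.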

Additional observations from a re-analysis of the deposited data

How the results depend on the processing

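The count of places shared by all 4 lists, 14 of 66, was 11 to 16 under every alternative run. The genome's share, 8.65%, was 7.19 to 15.6% in these runs. The window had 13 of 70 with chaining at 100 bp (genome 7.19%) and 14 of 62 at 500 bp (11.1%). It had 11 of 34 in the top 50% (15.6%) and 16 of 60 without G1E-ER4 list 1 (14.6%). The G1E-ER4-only count was 0 with chaining at 100 or 500 bp and in the top 50% of each list (genome's shares 0.753, 1.95 and 1.4%). It was 0 to 7 when a list was left out (genome's shares 2.18 to 22.4%). The G1E-only count, 2, was 1 with chaining at 100 bp (genome's share 2.11%) and 0 in the top 50% (3.7%). It was 2 to 10 when a list was left out (genome's shares 5.75 to 17.5%). The count of shared places higher in both G1E-ER4 lists was 1 to 6 of 14 to 16 when a list was left out, and so was the count lower in both, where the genome's shares were 26.6 to 39.9% (higher) and 24.4 to 43.2% (lower). The wider counts ask for 1 list in place of 2. The genome's G1E-ER4-only share was 20.6% without G1E-ER4 list 1 and 22.4% without G1E-ER4 list 2. Its G1E-only share was 17.5% without G1E list 1 and 15.4% without G1E list 2, where the window had 2 of 47. Within 50 bp the share of the window's peaks with a GATA word was 24.0 and 20.0% in the G1E-ER4 lists (whole lists 19.3 and 15.3%). It was 17.1% in G1E list 2 (whole list 17.3%). The top 50% of peaks was searched within 100 bp of the summit. There the window's share was 52.6 and 42.9% in the G1E-ER4 lists (top 50% of the whole lists 32 and 28.3%). In the G1E lists it was 52.6 and 45.5% (top 50% of the whole lists 27.6 and 31.7%). Over all peaks, within 150 bp, the window's share was 48.0 and 40.0% in the G1E-ER4 lists (whole lists 42.6 and 37%). There it was 35.7 and 31.7% in the G1E lists (whole lists 35.9 and 40%). The related genes with a promoter summit in all 4 lists numbered 15 of 24, where 10562 of 22380 protein-coding genes had one. With any overlapping peak they numbered 19, where 11722 of the 22380 genes had one.

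The difference at HS-21 was above 0 in all 8 alternatives (9.8 to 36.4 points), and that at the Hba-a1 and Hba-a2 promoters in 7 of 8 (-2.3 to 6.8 and -1.6 to 8.5 points). The difference at the Hbq1a promoter was below 0 in all 8 (-4.9 to -0.6 points). At HS-21 and Hbq1a the lists of the states did not overlap, so leaving out a list could not change the sign. Chaining at 500 bp and taking the peak nearest to the middle of the place gave the main values again. The sign in those alternatives was thus fixed beforehand and adds no support. The differences at HS-31 (-2.5 to 1.9 points), HS-26 (-7.3 to 1.6), HS-12 (-67.6 to 13.2), Hbq1b (-22.2 to 3.2) and the Nprl3 promoter (-4.8 to 2.5) took both signs. The list numbers are the replicate numbers in the names of the deposited lists. The labels do not say that equal numbers pair lists across states, so no paired analysis was run. With depth unknown and 1 sample per state, absence of a peak says only that none was among the 100000 peaks of that list.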
